A study of Mus musculus with 2 samples.

Results

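The amino acid transporter families described here are the 61 genes whose symbols begin with Slc1a, Slc3a, Slc6a, Slc7a, Slc36a, Slc38a or Slc43a followed only by digits, out of 33943 genes in the deposited matrix. The rule uses the symbol alone and no measured value. The matrix holds unique molecular identifiers (UMIs, one per captured RNA molecule) of single nuclei from the inguinal mammary fat pad of lactating mice, pooled into 1 library with a second library of hashtags by which nuclei are traced to animals. The 8 dams were bred at 8 weeks of age, ate standard chow and were sampled on postnatal day 11 of their pups, with the lymph nodes removed. Per the labels, 4 dams carried the floxed oxytocin receptor gene (Oxtr flox) and 4 an adipocyte-specific deletion of Oxtr (Adipo-specific Oxtr KO). Which promoter drives it the sources used here do not give, and the labels list litters of 5 pups, with 1 of 3, without tying a litter to a dam. The hashtags are named WT and Oxtr-KO. WT was taken as the floxed group because it is the only other genotype in the labels, and every comparison of genotypes below rests on that. Animals are named by the number in their hashtag, as WT1 or KO1.

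All 21805 barcodes of the matrix also carried hashtag UMIs, and 13005 nuclei were given to 1 of the 8 animals, with 1332 to 2017 nuclei and a median of 4225 to 5620 UMIs per nucleus in each animal. Oxtr itself was not lower in the adipocyte nuclei of the Oxtr-KO animals. It had 1 UMI in each WT animal and 4 or 5 UMIs in each Oxtr-KO animal there, so those animals are called labelled knockout. In myoepithelial nuclei, which the deletion does not target by its label, Oxtr had 221 to 245 CPM in WT and 178 to 204 CPM in Oxtr-KO animals, lower without overlap. The groups also did not overlap for 4.23% of the 6550 genes tested in that type. The 1 gene that passed the genotype test there, described below, was Got1 and not Oxtr. The sources used here do not give which part of Oxtr is deleted, and a 3′ tag outside it would check nothing. The share of secretory nuclei in a cluster led by mitochondrial genes, Glycam1 and Ak9 was highest in WT4 (70.6%) and lowest in WT2 (14.3%). It was 39.4% in WT1, 26.5% in WT3 and 35.1 to 51.3% in the animals labelled knockout. Calls of members that change without WT4 are given with and without it. Values of genes outside the families are given for all animals only. UMIs of secretory marker genes were found in every type. The 14 secretory marker genes had a median of 0.360 of their secretory level in adipocyte nuclei, 0.476 in myoepithelial and fibroblast nuclei, and 0.834 in luminal progenitor nuclei.

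Amino acids enter and leave cells through carriers of several unrelated families, each with its own set of substrates and its own driving force. Milk protein synthesis makes the secretory cell of the lactating gland one of the body's heavy users of amino acids, which it takes from the blood. Exchangers of the SLC7 family pair with a heavy chain of the SLC3 family and swap one amino acid for another, while the sodium-coupled carriers of SLC38 and SLC1 accumulate the small neutral or acidic amino acids that feed such exchange. Adipocytes use the same families in branched-chain, glutamine and serine metabolism, and several SLC38 and SLC36 proteins sit on lysosomes, where amino acid levels are read by mTORC1.

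Levels below are in CPM: UMIs summed over the nuclei of a type in 1 animal, relative to all UMIs of that sum, on the usual CPM scale. A 3′ tag gives about 1 count per molecule whatever the gene's length, and nuclei lack most cytoplasmic RNA, so levels are compared between cell types for 1 gene and not between genes. Across types the levels are a description over animals of both genotypes, with no test. Of the 61 members, 31 had at least 100 UMIs in the nuclei of the 8 animals and are described one by one. The other 30 had at most 75 UMIs, and 5 of them (Slc6a5, Slc6a18, Slc6a21, Slc7a9 and Slc7a12) had none. As a sum, the members made up 0.235 ± 0.0232% of UMIs in secretory luminal nuclei (SD, n = 8 animals) and 0.733 ± 0.138% in adipocyte nuclei (SD, n = 8). In the other types they lay between 0.183% in luminal progenitor and 0.234% in macrophage nuclei. Every adipocyte value, from 0.571 to 0.949%, lay above every value elsewhere, the highest of which was 0.271%. The largest parts of the adipocyte sum were Slc1a5 (mean 2762 CPM) and Slc1a3 (mean 2040 CPM), so the sum does not describe the members in general. Slc38a2, Slc7a5 and Slc7a7, among others, had their lowest mean in adipocyte nuclei.

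Of the 31 described members, 6 (19.4%) had 1 cell type in which every animal lay above every animal of every other type. Over the 14144 genes with at least 100 UMIs the share was 6.7%. In both, the UMIs were summed over types, so a gene can reach 100 UMIs through its high type alone. The shares were set side by side with no test. Of these 6 members, 5 were highest in adipocyte nuclei, where 2.26% of all genes met the same rule, and 1 in fibroblast nuclei, where 1.48% did. No member met it in secretory luminal nuclei, where only 1 gene (0.00707%) of all did, nor in the Klra2 cluster (0.601%), luminal progenitor (0.141%), macrophage (0.255%), myoepithelial (1.6%) or vascular endothelial nuclei (0.354%). The median of the secretory markers in the other types was 0.360 to 0.834 of their secretory level. Over single markers it ran from 0.166 (Atp2b2 in adipocyte nuclei) to 1.20 (Prlr in luminal progenitor nuclei).

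By mean level alone, 5 of the 31 members were highest in adipocyte nuclei (18.3% of all genes), 6 in macrophage (12%), 5 each in fibroblast (10.6%), myoepithelial (13.2%) and Klra2 cluster nuclei (15.4%), 3 in secretory (8.34%), 2 in luminal progenitor (13%) and 0 in vascular endothelial nuclei (9.3%).

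**Figure D1:**
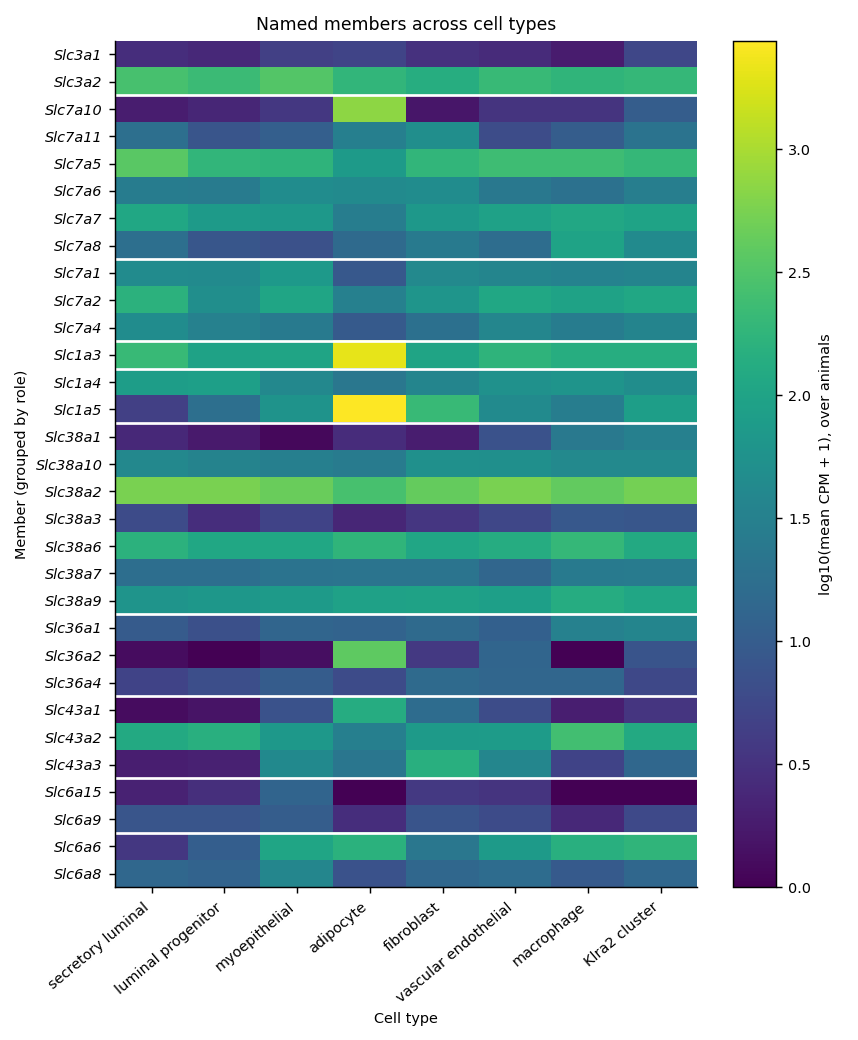
Mean level of the 31 described members in the 8 cell types that reached 10 nuclei in 6 or more animals, as log10 of mean CPM plus 1, with white lines between role groups. Adipocyte nuclei stand out for Slc1a3, Slc1a5, Slc7a10, Slc36a2 and Slc43a1, while UMIs of Slc38a2, Slc3a2 and Slc7a5 are found in all 8 types. The part of secretory cell RNA in those UMIs was not tested.

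The glutamate and aspartate transporter Slc1a3 (ENSMUSG00000005360.15, also called GLAST) and the glutamine and neutral amino acid exchanger Slc1a5 (ENSMUSG00000001918.18, ASCT2) were among the 5 adipocyte members. Slc1a5 stood at 3225, 3305, 2755 and 3196 CPM in adipocyte nuclei of WT1 to WT4 and at 2624, 2917, 2108 and 1962 CPM in KO1 to KO4. At least 1 Slc1a5 UMI was in 98.9% of adipocyte nuclei and in 1.97% of secretory nuclei, at median depths of 4346 and 5228 UMIs. Fibroblast nuclei came next at 209 ± 27.6 CPM (SD, n = 8), and secretory luminal nuclei were lowest at 3.46 ± 1.04 CPM (SD, n = 8). The mean over adipocyte nuclei was 13.2 times that of fibroblast and 798 times that of secretory nuclei.

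Slc1a3 stood at 2755, 3579, 2971 and 1121 CPM in adipocyte nuclei of WT1 to WT4 and at 997, 2415, 1274 and 1205 CPM in KO1 to KO4. WT1, WT2, WT3 and KO2 were high and the other 4 animals low. The next type was the secretory luminal at 206 ± 57.3 CPM (SD, n = 8), from 110 to 286 CPM, and 56.8% of secretory nuclei had at least 1 Slc1a3 UMI. The 6 other types ranged from 94.5 CPM in luminal progenitor to 175 CPM in vascular endothelial nuclei. In all 6 the ratio of Slc1a3 to its secretory level lay inside the range of the same ratio for the 14 secretory markers. This range runs from the lowest to the highest marker. Its top was 1.20 in luminal progenitor, 1.19 in vascular endothelial, 1.04 in macrophage and 1.01 in myoepithelial nuclei. A gene at its secretory level in 1 of these 4 types thus lies inside the range too. How much RNA of a gene inside the range came from secretory cells was not tested.

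Slc7a10 (ENSMUSG00000030495.13, Asc-1), an exchanger of small neutral amino acids such as serine that is known as a marker of white adipocytes, had 652, 738, 608 and 1108 CPM in WT1 to WT4 and 694, 548, 594 and 737 CPM in KO1 to KO4. It was lower in each other type, with 9.48 CPM in the unnamed cluster led by Klra2 and 0.592 to 2.57 CPM in the rest. Slc36a2 (ENSMUSG00000020264.6, PAT2), a proton-coupled carrier of small amino acids known from brown and beige fat, had a mean of 384 ± 112 CPM (SD, n = 8) in adipocyte nuclei and 12.2 ± 23.5 CPM (SD, n = 8) in vascular endothelial nuclei, the next type. Slc43a1 (ENSMUSG00000027075.17, LAT3), a facilitated carrier of branched-chain and other large neutral amino acids, had 136 ± 29.7 CPM (SD, n = 8) in adipocyte and 15.4 ± 5.37 CPM (SD, n = 8) in fibroblast nuclei. All 3 genes were under 1 CPM in secretory nuclei. The 5 adipocyte members thus include carriers of glutamate, glutamine, serine, small neutral and branched-chain amino acids.

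**Figure D2:**
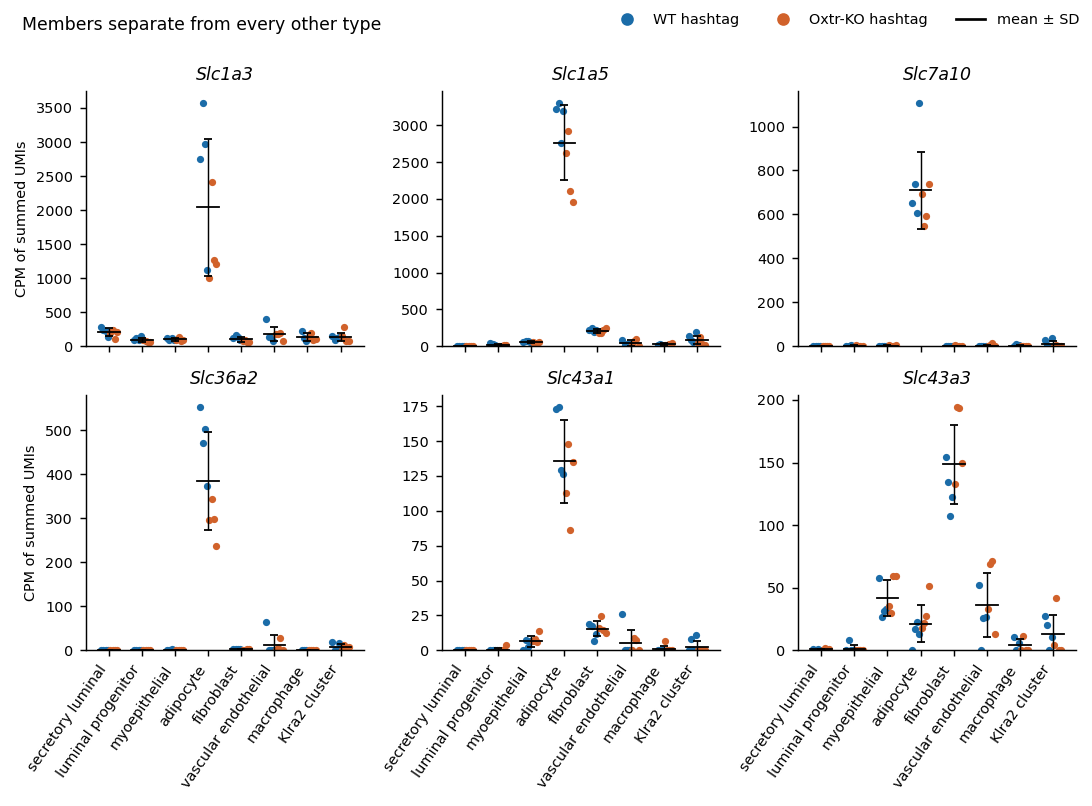
CPM per animal (dots, blue for WT and orange for Oxtr-KO hashtags) of the 6 members with 1 separate cell type, with the mean and SD over animals in black. For Slc1a3, Slc1a5, Slc7a10, Slc36a2 and Slc43a1 all 8 adipocyte dots lie above every dot elsewhere, and for Slc43a3 all 8 fibroblast dots do.

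Fatty acid and adipocyte genes are often bound by PPARG, whose element holds AGGTCA, and by C/EBP factors. Promoters are shown for the 3 adipocyte members for which one was at hand. Those of Slc1a5 and Slc36a2, which share the separate adipocyte level, were not at hand and were not searched. RefSeq promoters (build GRCm38.p6, 250 bases before to 50 after the start) were at hand for 43 of the 61 members. The start in use in these nuclei was not analysed here. Capitals mark strings that match TATAAA (the motif of a TATA box), the PPARG element part AGGTCA, the C/EBP core TTNNGNAA or the composite ATF4 and C/EBP site TGATGNAA. Each was searched on both strands, and use of a match was not tested. Slc1a3 lies at chr15:8710758-8711057 on the minus strand, Slc7a10 at chr7:35186135-35186434 on the plus strand and Slc43a1 at chr2:84840073-84840372 on the plus strand.
Slc1a3: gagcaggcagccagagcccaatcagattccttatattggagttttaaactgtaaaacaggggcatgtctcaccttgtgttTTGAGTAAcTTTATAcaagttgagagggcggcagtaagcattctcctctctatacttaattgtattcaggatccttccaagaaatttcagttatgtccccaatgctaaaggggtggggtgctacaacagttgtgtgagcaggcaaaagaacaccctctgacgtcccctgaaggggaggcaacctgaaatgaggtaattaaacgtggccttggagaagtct
Slc7a10: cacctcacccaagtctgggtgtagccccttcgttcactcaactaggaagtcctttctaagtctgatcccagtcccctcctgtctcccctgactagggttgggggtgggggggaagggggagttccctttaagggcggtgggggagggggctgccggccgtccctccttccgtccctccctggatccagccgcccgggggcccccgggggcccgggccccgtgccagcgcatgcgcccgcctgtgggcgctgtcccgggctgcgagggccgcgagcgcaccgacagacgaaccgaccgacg
Slc43a1: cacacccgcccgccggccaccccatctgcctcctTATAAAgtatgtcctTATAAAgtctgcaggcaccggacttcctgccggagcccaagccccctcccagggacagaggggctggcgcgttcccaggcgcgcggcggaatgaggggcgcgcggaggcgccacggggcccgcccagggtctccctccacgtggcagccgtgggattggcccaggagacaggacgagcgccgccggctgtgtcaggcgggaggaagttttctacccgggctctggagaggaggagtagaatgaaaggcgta
No AGGTCA or TGATGNAA was in these 3 windows. Among all 32851 promoters of this length 16.3% held AGGTCA and 3.97% TGATGNAA, and among the 43 members with a promoter 9 and 4 did. The Slc1a3 window held 1 C/EBP core, a motif in 40.7% of all promoters, next to 1 TATAAA read on the other strand. Slc43a1 held 2 TATAAA, a motif in 13.6% of all promoters. GC content was 45.3% for Slc1a3, 70.7% for Slc7a10 and 67.7% for Slc43a1, against a median of 52.7% over all promoters. The 3 windows thus had no motif of this search in common.

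Slc43a3, an equilibrative carrier known for purine bases and fatty acids rather than amino acids, was the fibroblast member. It stood at 154, 134, 108 and 123 CPM in WT1 to WT4 and at 133, 194, 194 and 149 CPM in KO1 to KO4, 3.57 times the next type, the myoepithelial at 41.7 ± 14.5 CPM (SD, n = 8). Secretory nuclei had 0.956 ± 0.531 CPM (SD, n = 8). With HTODemux on centred log ratios within barcodes, and with all hashtags in the calling, fibroblast values of Slc43a3 overlapped those of another type, and the 5 adipocyte members stayed separate under each alternative run.

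In the secretory luminal nuclei, the cells that make milk, 3 members had their highest mean level: Slc7a5, Slc7a2 and Slc7a4. Of all genes, 8.34% were highest there. Slc7a5 (ENSMUSG00000040010.11, LAT1), the exchanger that brings in leucine and other large neutral amino acids, had 465, 326, 328 and 285 CPM in WT1 to WT4 and 288, 524, 429 and 262 CPM in KO1 to KO4. High and low animals occurred in both genotypes. Vascular endothelial nuclei followed with 237 ± 75.1 CPM and macrophage nuclei with 231 ± 95.5 CPM (SD, n = 8 and 7), and both overlapped the secretory range of 262 to 524 CPM. Adipocyte nuclei had the lowest level at 74.3 ± 33.4 CPM (SD, n = 8). In all 7 other types the level of Slc7a5 relative to secretory nuclei lay inside the range of the secretory markers.

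Slc7a2, the cationic transporter CAT2 that carries arginine, lysine and ornithine, had 260, 180, 195 and 105 CPM in WT1 to WT4 and 181, 174, 70.3 and 136 CPM in KO1 to KO4. The lowest values were those of KO3 and WT4. Its level elsewhere ran from 30.8 ± 13.2 CPM in adipocyte to 113 ± 42 CPM in vascular endothelial nuclei (SD, n = 8 each). Slc7a4, a relative of the cationic carriers whose own substrate is uncertain, had 55.9, 39.1, 43.6 and 50.8 CPM in WT1 to WT4 and 45.8, 42.7, 49.9 and 38.7 CPM in KO1 to KO4. It varied little between animals in secretory nuclei (45.8 ± 6.03 CPM, SD, n = 8), and its 36.4 ± 21 CPM in vascular endothelial nuclei (SD, n = 8) overlapped that range. For Slc7a2, Slc7a4, Slc7a5 and Slc1a4, no other type exceeded the range set by the secretory markers. Slc1a4 nevertheless had 1.08 of its secretory level in luminal progenitor nuclei, inside the wide range there.

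The heavy chain Slc3a2 (CD98hc), which Slc7a5, Slc7a6, Slc7a7, Slc7a8, Slc7a10 and Slc7a11 need to reach the membrane, was seen in every type. It was highest in myoepithelial nuclei at 329 ± 44.1 CPM and next in secretory nuclei at 271 ± 37.1 CPM (SD, n = 8 each), with overlapping animals. Fibroblast nuclei were lowest at 138 ± 17.4 CPM (SD, n = 8). In myoepithelial nuclei only, the level relative to secretory nuclei lay above the range of the secretory markers. The other heavy chain, Slc3a1, which serves kidney and gut exchange of cystine, had 1.79 ± 0.589 CPM in secretory nuclei (SD, n = 8) and at most 4.43 CPM in any of the 8 compared types.

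**Figure D3:**
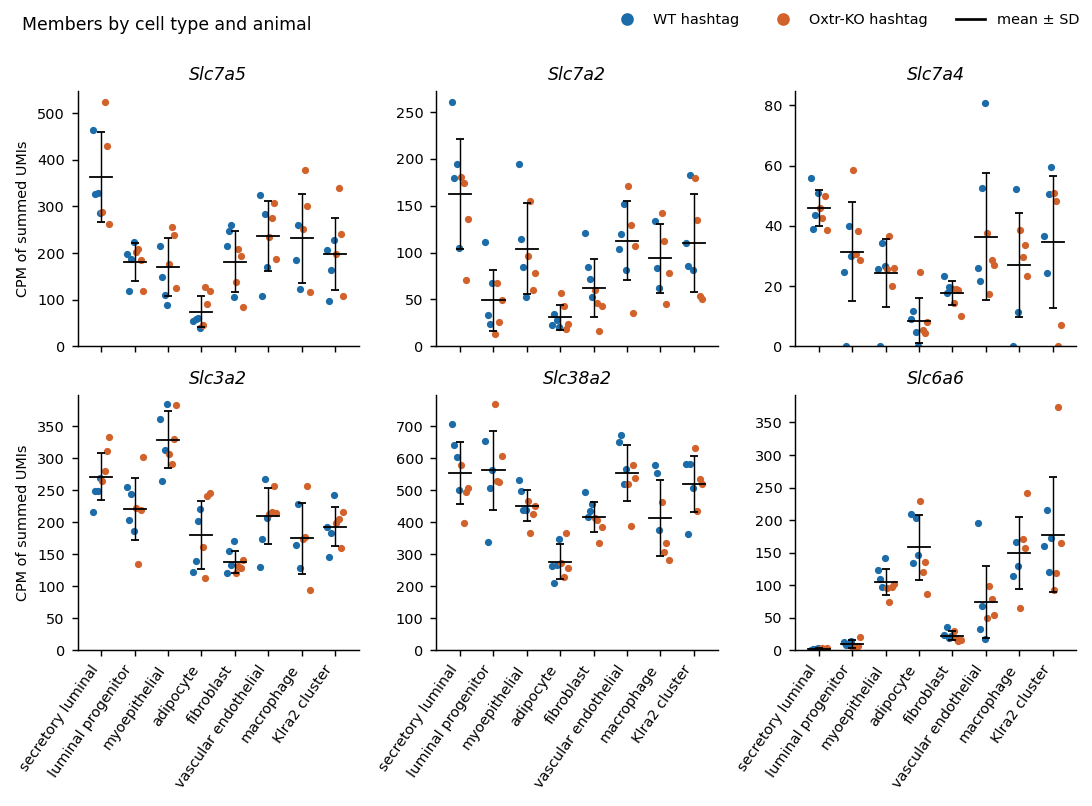
CPM per animal (dots, blue for WT and orange for Oxtr-KO hashtags) of Slc7a5, Slc7a2, Slc7a4, Slc3a2, Slc38a2 and Slc6a6 in 8 cell types, with the mean and SD in black. Secretory dots of Slc7a5 run from 262 to 524 CPM and overlap those of other types, while all 8 secretory dots of Slc6a6 lie under 4 CPM.

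Among the other light chains, Slc7a8 (LAT2), an exchanger of large and small neutral amino acids, was highest in macrophage nuclei at 99.4 ± 48 CPM (SD, n = 7) and followed by the Klra2 cluster at 43.6 ± 20.9 CPM (SD, n = 8). At least 1 UMI was in 28.6% of macrophage nuclei and in 2.31% of myoepithelial nuclei. Slc7a11 (xCT), which takes up cystine in exchange for glutamate, was highest in fibroblast nuclei at 49.3 ± 13.1 CPM, followed by adipocyte nuclei at 29.5 ± 21.3 CPM (SD, n = 8 each), and the 2 types overlapped. Slc7a6 (y+LAT2), which exchanges cationic for neutral amino acids, had nearly the same mean in fibroblast (46.8 CPM), myoepithelial (46.7 CPM) and adipocyte nuclei (43.1 CPM), with secretory nuclei at 27.3 ± 4.72 CPM (SD, n = 8). Slc7a7 (y+LAT1) had 114 ± 27.6 CPM in macrophage (SD, n = 7) and 111 ± 32 CPM in secretory nuclei (SD, n = 8), a difference well within the spread. Of the remaining cationic carriers, Slc7a1 (CAT1), the widely used arginine and lysine carrier, was highest in myoepithelial nuclei at 72.3 ± 19.2 CPM, against 44.3 ± 16.1 CPM in secretory nuclei (SD, n = 8 each), with overlap.

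Slc38a2 (SNAT2), a sodium-coupled carrier of alanine, glutamine and other small neutral amino acids that responds to amino acid supply, was near the same level in 4 types. Means were 561 CPM in luminal progenitor, 554 CPM in vascular endothelial, 553 CPM in secretory luminal and 519 CPM in Klra2 cluster nuclei, with SDs of 125, 88.2, 98 and 87.2 CPM (n = 8 each). Relative to secretory nuclei, the first 2 lay inside the range of the secretory markers and the Klra2 cluster above it. Pooled nuclei with no hashtag had 414, 347, 474 and 358 CPM in the same order of types. The part of secretory cell RNA in these levels was not tested. Adipocyte nuclei were lowest at 277 ± 54.3 CPM (SD, n = 8), and their range of 209 to 367 CPM lay below the 8 secretory animals, which ran from 398 to 708 CPM. Slc38a6, an orphan member of the family, lay between 108 CPM in fibroblast and 194 CPM in macrophage nuclei. Slc38a9, the lysosomal arginine sensor of mTORC1, was lowest in secretory nuclei at 60.3 ± 10.8 CPM (SD, n = 8) and highest in macrophage nuclei at 136 ± 57.3 CPM (SD, n = 7). Slc38a10 had means of 25.7 to 52 CPM and Slc38a7, a lysosomal glutamine carrier, 12.5 to 26.1 CPM over the 8 types. Slc38a3 (SN1), a glutamine carrier of liver and kidney, stayed at or under 7.99 CPM. Slc38a1 (SNAT1), another sodium-coupled glutamine carrier, had 30.4 ± 18.2 CPM in the Klra2 cluster (SD, n = 8), 23.4 ± 15.9 CPM in macrophage nuclei (SD, n = 7) and 1.53 ± 0.921 CPM in secretory nuclei (SD, n = 8).

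The neutral exchanger Slc1a4 (ASCT1), the close relative of Slc1a5, was lowest where Slc1a5 was highest. It stood at 87 ± 32.1 CPM in luminal progenitor and 80.5 ± 30 CPM in secretory nuclei, and was lowest in adipocyte nuclei at 22.5 ± 10.8 CPM (SD, n = 8 each). Among the proton-coupled carriers, Slc36a1 (PAT1), which moves small amino acids out of lysosomes, had 35.6 ± 14.1 CPM in the Klra2 cluster (SD, n = 8), 31.1 ± 7.82 CPM in macrophage nuclei (SD, n = 7) and 8.59 ± 1.23 CPM in secretory nuclei (SD, n = 8). Slc36a4 stayed between 4 and 14.7 CPM. In family 43, Slc43a2 (LAT4), a facilitated carrier of branched-chain amino acids and phenylalanine, was highest in macrophage nuclei at 250 ± 80.5 CPM (SD, n = 7). In secretory nuclei it varied more between animals than the other members with over 100 CPM, with 38.6, 128, 178 and 120 CPM in WT1 to WT4 and 65.2, 80.4, 269 and 88.8 CPM in KO1 to KO4. WT1 was also the lowest and KO3 among the 3 highest animals in fibroblast and myoepithelial nuclei. In these types the median of the secretory markers was 0.476 of their secretory level.

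Family 6 holds carriers of organic osmolytes and energy compounds as well as of amino acids. The taurine carrier Slc6a6 (TauT) was low in secretory nuclei at 2.67 ± 0.885 CPM and high in the Klra2 cluster at 177 ± 88.2 CPM, in adipocyte nuclei at 158 ± 49.7 CPM (SD, n = 8 each), in macrophage nuclei at 149 ± 55.1 CPM (SD, n = 7) and in myoepithelial nuclei at 105 ± 20.1 CPM (SD, n = 8). Only 1.33% of secretory nuclei had a Slc6a6 UMI against 32.6% of myoepithelial nuclei, which had fewer UMIs per nucleus (3042 against 5228 in the median). The creatine carrier Slc6a8 was highest in myoepithelial nuclei at 36.9 ± 8.31 CPM, against 15.7 CPM or less elsewhere. The branched-chain amino acid and proline carrier Slc6a15 was also highest there among the 8 compared types at 11.8 ± 4.33 CPM (46 UMIs; 54.8 CPM in a small cluster led by Nrg3 that was not compared), as did the glycine carrier Slc6a9 (GlyT1) at 9.51 ± 2.44 CPM (SD, n = 8 each), though its secretory level of 7.16 ± 2.61 CPM overlapped.

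Of the 31 described members, 6 had their lowest mean in secretory nuclei (Slc1a5, Slc6a6, Slc36a4, Slc38a9, Slc43a1 and Slc43a3), close to the 16.9% of all genes that did. In none of the 6 did every secretory animal lie below every animal elsewhere, as 0.106% of all genes did. The levels of Slc1a5, Slc6a6, Slc36a4 and Slc43a1 relative to secretory nuclei lay above the range of the secretory markers in all 7 other types.

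Nuclei with no called hashtag belong to no named animal. Their median of the secretory markers, relative to secretory nuclei, was lower than in the named animals in 6 of the 7 other types (not in adipocyte nuclei). The nuclei with no hashtag gave the same highest type for 23 of the 31 members. These included all 5 adipocyte members, with 2143 CPM for Slc1a5, 2405 for Slc1a3, 662 for Slc7a10, 281 for Slc36a2 and 87.4 for Slc43a1 over 92 pooled adipocyte nuclei. Slc7a5 (300.4 CPM), Slc7a2 (159 CPM) and Slc7a4 (41.4 CPM) were again highest in the secretory nuclei. In the other types with no hashtag, Slc7a5 ran from 45.5 CPM in fibroblast to 107 CPM in macrophage nuclei. Slc38a2 and Slc7a7 were also highest in secretory nuclei there, unlike in the named animals. These pooled values have no replicates.

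Types with too few nuclei per animal were read as sums over all clustered nuclei, with exact 95% Poisson intervals that cover counting error only. Slc38a11, a little studied relative of the SLC38 carriers, had 53 of its 61 UMIs in 146 pericyte nuclei (121 CPM, 91 to 159). Slc38a1 reached 118 CPM (92.8 to 149) in 232 T and NK nuclei. Hormone-sensing luminal nuclei, 72 in all, had 256 CPM of Slc7a2 (199 to 323) and 862 CPM of Slc38a2 (755 to 979). Plasma cell nuclei, which also make secreted protein, had 344 CPM of Slc7a5 (299 to 394) and 688 CPM of Slc38a2 (624 to 757) over 199 nuclei. Among members with under 100 UMIs in the 8 animals, the glutamate carrier Slc1a1 had 31.7 CPM in vascular endothelial nuclei (24 to 40.9; 11.7 CPM as the mean of the 8 animals and 68.3 CPM in nuclei with no hashtag), Slc38a4 15.9 CPM (12.8 to 19.4) and Slc7a15 14.7 CPM (11.8 to 18.1) in fibroblast nuclei, and the GABA and taurine carrier Slc6a13 13.8 CPM (9.23 to 19.8) in adipocyte nuclei. A cluster of 281 nuclei led by Nrg3, of which 6 were given to a named animal, held 146 of the 226 UMIs of Slc7a14 (86 CPM, 72.6 to 101) and 96 of the 194 UMIs of Slc1a1 (56.6 CPM, 45.8 to 69.1).

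Within the secretory type, a cluster led by Plpp4 and Elovl5 (5591 nuclei, median 5905 UMIs) was set beside the cluster led by mitochondrial genes, Glycam1 and Ak9 (3826 nuclei, median 4334 UMIs) in each animal. Of 24 members with at least 100 UMIs there, Slc7a2 and Slc38a6 were higher in the Plpp4 cluster in 8 of 8 animals, where 4.06% of all genes were, and no member was lower in 8 of 8, where 2.39% were. The clusters were drawn from the same nuclei, so these are counts with no test. Slc7a2 had 173 ± 58.2 CPM in the Plpp4 cluster and 144 ± 55 CPM in the Ak9 cluster, and Slc38a6 had 165 ± 32.3 and 153 ± 27.9 CPM (SD, n = 8 each). Slc7a8, Slc38a7 and Slc7a6 were higher there in 7 of 8 animals. Slc7a5 was higher there in 1 of 8 animals, at 359 ± 101 against 377 ± 94.3 CPM, as was Slc7a4, at 45.1 ± 7.46 against 49.7 ± 6.63 CPM (SD, n = 8 each).

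Whether the transporters differ with the genotype label was asked in each type with edgeR's quasi-likelihood test on UMIs summed per animal, fitted over all genes and adjusted by Benjamini-Hochberg. No member passed an adjusted p of 0.05 in any of the 8 types. In secretory nuclei 26 members were tested, 1 had an unadjusted p under 0.05 and none was called by DESeq2 either. Among all 12829 genes tested there 0% were called, and 8.63% had an unadjusted p under 0.05. For 0 of the 26 members did the groups not overlap, against 3.72% of genes. The median log2 fold change of the 26 members, labelled knockout over WT, was -0.0048 against -0.0071 over all genes.

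By role, both heavy chains had a log2 fold change above 0 in secretory nuclei. Slc3a2 had 216, 249, 249 and 270 CPM in WT1 to WT4 and 264, 280, 311 and 333 CPM in KO1 to KO4, which gave 0.23 ± 0.11 (SE) on the log2 scale and an adjusted p of 0.584 by edgeR. Only KO1 lay below the highest WT animal. Slc3a1 had 41 UMIs in the WT and 55 in the labelled knockout animals and a log2 fold change of 0.62 ± 0.27 (SE). Its adjusted p by edgeR was 0.579. All 3 cationic carriers were below 0, with a median of -0.43, as were 4 of 5 light chains (median -0.25) and both neutral exchangers of family 1 (median -0.36). Of 7 SLC38 members, 5 were above 0, but Slc38a2 had 613 ± 87 CPM in WT and 494 ± 73.5 CPM in labelled knockout animals (SD, n = 4 each), at -0.36 ± 0.17 (SE, adjusted p = 0.584 by edgeR). Slc7a5 differed by 0.04 ± 0.24 (SE, adjusted p = 0.971), Slc7a2 by -0.43 ± 0.34 (SE, adjusted p = 0.731) and Slc7a4 by -0.14 ± 0.13 (SE, adjusted p = 0.773). None of these values passed.

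**Figure D4:**
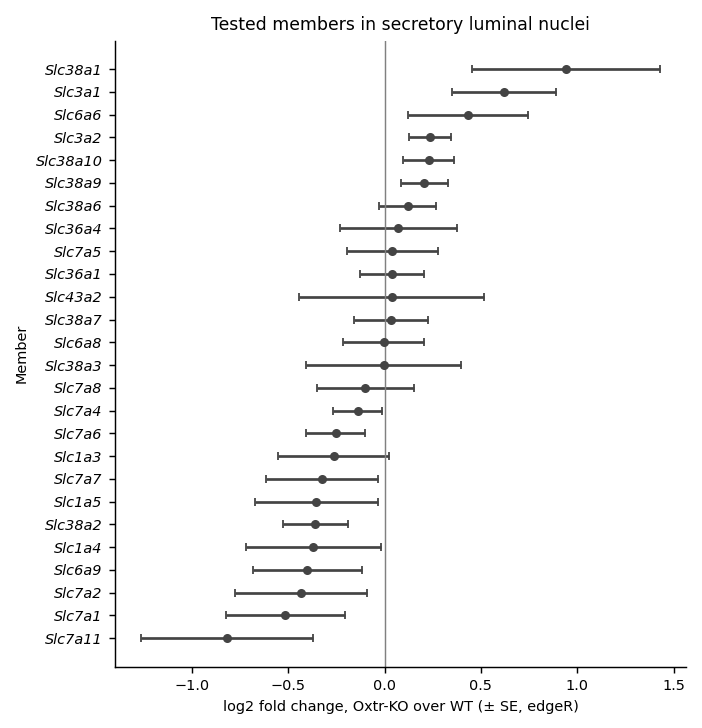
Log2 fold change of each of the 26 tested members in secretory luminal nuclei, labelled knockout over WT, with its standard error from edgeR (4 animals a group). Values run from Slc7a11 at -0.82 to Slc38a1 at 0.94, and no member passed the adjusted threshold.

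In adipocyte nuclei, the cells the deletion is aimed at, 11 members were tested and none passed, while 1 of 3872 genes did (0.0258%). 4 of the 11 had an unadjusted p under 0.05, where 8.6% of all genes did. Slc36a2 had 552, 471, 502 and 374 CPM in WT1 to WT4 and 296, 344, 299 and 238 CPM in KO1 to KO4. The groups did not overlap, as was so for 4.44% of the genes tested and for 1 of the 11 members. Its log2 fold change was -0.71 ± 0.19 (SE, adjusted p = 0.211 by edgeR), and over the alternatives the adjusted p lay between 0.0531 (without WT4) and 0.704. Slc1a3 had 2606 ± 1050 CPM in WT and 1473 ± 639 CPM in labelled knockout animals (SD, n = 4 each), a log2 fold change of -0.85 ± 0.30 (SE, adjusted p = 0.384 by edgeR). WT4 lay below 3 of the 4 labelled knockout animals, and the other 3 WT animals lay above all 4. Without WT4 its fold change was -1.10 with an adjusted p of 0.0320 by edgeR, and with no filter on low counts the adjusted p was 0.0090. Over all alternatives run it lay between 0.0090 and 0.766. Slc1a5 had 3120 ± 248 CPM in WT and 2403 ± 445 CPM in labelled knockout animals (SD, n = 4 each, log2 fold change -0.39 ± 0.16 SE, adjusted p = 0.459 by edgeR). Slc7a5 had a fold change above 0, with 53.2 ± 9.03 CPM in WT against 95.4 ± 36.5 CPM (SD, n = 4 each, 0.81 ± 0.32 SE, adjusted p = 0.449 by edgeR). Slc7a10 stood at -0.28 ± 0.21 and Slc43a1 at -0.33 ± 0.23 (SE).

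Of the 11 members, 8 had a fold change below 0, with a median of -0.30 against -0.00084 over all genes tested in adipocyte nuclei. The summed level of the 11 adipocyte markers, which was not tested, was 30043 to 34100 CPM in WT and 23333 to 25075 CPM in labelled knockout animals, with no overlap. The summed secretory markers in the same nuclei were 49681 to 55478 CPM in WT and 51553 to 61792 CPM in labelled knockout animals. The part of either in the values of the members was not tested.

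**Figure D5:**
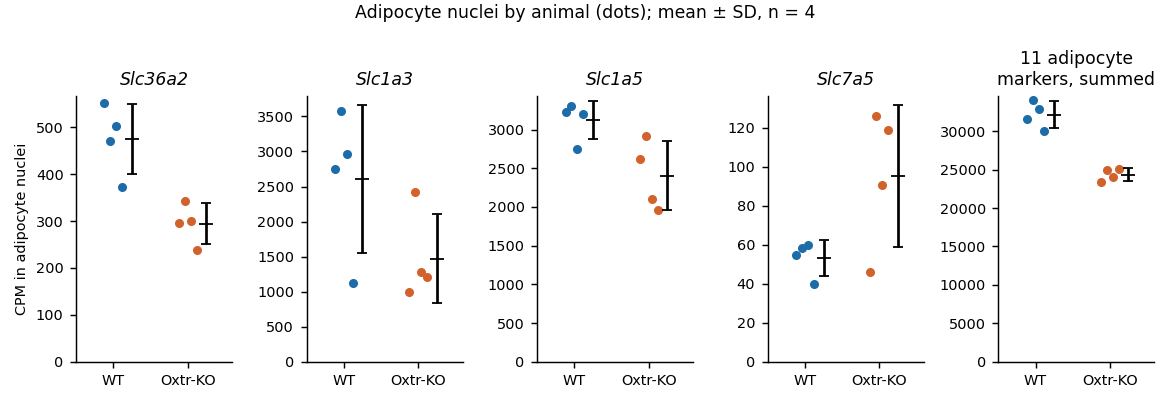
CPM in adipocyte nuclei of each animal (dots) for 4 members and for the sum of 11 adipocyte markers, with mean and SD in black (n = 4 a group, axes from 0). The groups do not overlap for Slc36a2 and for the marker sum, and they overlap for Slc1a3, Slc1a5 and Slc7a5.

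In fibroblast nuclei, 16 members were tested, of which none passed and 3 had an unadjusted p under 0.05, where 7.31% of 6226 genes did and 0% were called. Slc1a3 had 125, 159, 140 and 89.1 CPM in WT1 to WT4 and 75.8, 93, 66.6 and 63.2 CPM in KO1 to KO4, with a log2 fold change of -0.81 ± 0.21 (SE, adjusted p = 0.361 by edgeR). Without WT4 it was -0.96 with an adjusted p of 0.0402 by edgeR. Without the barcodes of the highest Scrublet scores it was -0.36, and with all hashtags in the calling -0.42, and over the alternatives the adjusted p lay between 0.0402 and 0.908. Summed adipocyte markers in fibroblast nuclei were 1327 to 2725 CPM in WT and 1254 to 2504 CPM in labelled knockout animals. Slc7a2 had 82.5 ± 28.5 against 41.5 ± 18.1 CPM (SD, n = 4 each, -1.03 ± 0.32 SE, adjusted p = 0.477 by edgeR), and with no filter its adjusted p was 0.0429, the lowest of a range up to 0.904. Relative to secretory nuclei, Slc1a3 in fibroblast nuclei (0.494) lay inside the range of the secretory markers and Slc7a2 (0.381) below it. Pooled fibroblast nuclei with no hashtag had 40.0 CPM of Slc1a3 and 18.8 CPM of Slc7a2. The part of secretory cell RNA in these fold changes was not tested. Slc38a6 had 121 ± 19.6 against 94.2 ± 12.4 CPM (SD, n = 4 each, adjusted p = 0.676 by edgeR). The groups did not overlap for 1 of the 16 members, where 4.53% of all genes did not. That member was Slc38a2, outside the rule for naming and named after its values were seen, with 493, 417, 434 and 455 CPM in WT1 to WT4 and 414, 408, 335 and 385 CPM in KO1 to KO4 (log2 fold change -0.27 ± 0.14 SE, adjusted p = 0.694 by edgeR).

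In myoepithelial nuclei 19 members were tested with none called (0.0153% of 6550 genes were), and 2 had an unadjusted p under 0.05 (7.82% of genes). Slc38a9 had 84.4 ± 7.86 CPM in WT and 64.2 ± 19.9 CPM in labelled knockout animals, and the taurine carrier Slc6a6 had 118 ± 19.1 and 92.3 ± 12 CPM (SD, n = 4 each), with adjusted p of 0.571 and 0.592 by edgeR. Slc7a5 stood at 141 ± 55.7 and 199 ± 59.8 CPM there (SD, n = 4 each, adjusted p = 0.678 by edgeR). No member had an unadjusted p under 0.05 among 13 tested in the Klra2 cluster, 12 in macrophage, 9 in luminal progenitor and 7 in vascular endothelial nuclei, where 6.21, 4.18, 4.59 and 3.84% of genes had one. The adjusted threshold was passed by 0% of genes in the Klra2 cluster and luminal progenitor nuclei, 0.0373% in macrophage and 0.0436% in vascular endothelial nuclei. No member had groups without overlap in these 4 types or in myoepithelial nuclei, where 3.43% (Klra2 cluster), 3.15% (luminal progenitor), 5.19% (macrophage), 2.58% (vascular endothelial) and 4.23% (myoepithelial) of genes did. WT1 was left out of the macrophage fit for having under 10 such nuclei. The smallest p in these types belonged to Slc38a2 in macrophage nuclei, with 502 ± 110 CPM in WT (SD, n = 3) and 347 ± 81.3 CPM in labelled knockout animals (SD, n = 4, log2 fold change -0.59 ± 0.28 SE, adjusted p = 0.992 by edgeR). The other members named for these types were Slc7a8 and Slc7a7 in macrophage nuclei, Slc1a5, Slc7a8 and Slc7a7 in the Klra2 cluster, Slc1a3, Slc38a6 and Slc38a2 in luminal progenitor nuclei, and Slc38a2, Slc38a6 and Slc7a5 in vascular endothelial nuclei, with log2 fold changes from -0.88 to 0.74. Differences between types in these fold changes were not tested.

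The genes that read and answer amino acid supply gave no call in secretory nuclei either, with all 8 animals in the edgeR fit. In secretory nuclei 34 genes were called without WT4 and 22 with DESeq2. Whether genes of these lists are among them is not given here. ATF4 is the factor switched on by amino acid shortage. A list of ATF4 targets and amino acid synthesis genes, which also holds Eif2ak4, had 17 tested genes. Of these, 14 had a log2 fold change below 0, with a median of -0.33, and 2 had an unadjusted p under 0.05. Of all genes tested in secretory nuclei, 8.63% had one. Chac1, a glutathione-degrading enzyme, had 5.08 ± 1.63 CPM in WT and 2 ± 0.623 CPM in labelled knockout animals (SD, n = 4 each, -1.46 ± 0.33 SE, adjusted p = 0.546 by edgeR), and its groups did not overlap, as for 3.72% of genes. Sesn2, a leucine sensor, had 12.8 ± 4.75 and 8.17 ± 2.58 CPM (SD, n = 4 each, adjusted p = 0.573 by edgeR). Among 22 tested genes of mTORC1 sensing, 14 were above and 8 below 0. Sesn1 had 33.4 ± 3.13 and 48.5 ± 9.82 CPM (SD, n = 4 each, adjusted p = 0.558 by edgeR), also without overlap, and Fnip1, a partner of folliculin, 180.0 ± 40.4 and 266 ± 80.1 CPM. Among 12 genes of glutamine, branched-chain and arginine metabolism, Got1, the cytosolic aspartate aminotransferase, had 361 ± 42.2 and 712 ± 104 CPM (SD, n = 4 each, 0.95 ± 0.14 SE, adjusted p = 0.439 by edgeR), with no overlap. In myoepithelial nuclei Got1 was the 1 gene called of 6550, and it rose from 119 ± 12.8 to 377 ± 48.6 CPM (SD, n = 4 each, 1.64 ± 0.15 SE, adjusted p = 6.06e-06 by edgeR). With hashtags called on centred log ratios within barcodes, 0 genes were called in that type, so this call was lost. Its groups did not overlap in adipocyte, luminal progenitor and macrophage nuclei either, where it was not called. Of all genes, 4.44% in adipocyte, 3.15% in luminal progenitor and 5.19% in macrophage nuclei had groups without overlap. The median of the secretory markers in these types was 0.360 to 0.834 of their secretory level. The part of secretory cell RNA there was not tested. Gpt2, the mitochondrial alanine aminotransferase, had 216 ± 47.6 and 164 ± 36.8 CPM. Among 12 carriers outside the families, 3 had an unadjusted p under 0.05, all above 0, where 8.63% of all genes had one. Slc16a10, a carrier of aromatic amino acids, had 28 UMIs in WT and 63 in labelled knockout animals (1.42 ± 0.43 SE, adjusted p = 0.558 by edgeR), and the lysosomal cystine carrier Ctns 42.9 ± 11.2 and 58 ± 12.5 CPM (SD, n = 4 each).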

How the data were processed

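Nuclei of 8 animals were sequenced in 1 pooled library with a hashtag library. The authors deposited the UMI count matrix and the hashtag counts, made with Cell Ranger 7.2.0 and fastp per the submitters' processing notes (build GRCm39). Barcodes with at least 500 UMIs, 300 genes and at most 5% mitochondrial UMIs were kept (20854 of 21805).

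HTODemux (Seurat 5.3.0, quantile 0.99) on 9 of 10 hashtags called 2012 doublets, which were removed, and left 5570 nuclei without a hashtag and 267 with an unknown one. Scrublet marked 1 barcode by its own threshold, so it served only as an alternative. Nuclei were clustered with scanpy 1.11.5 (Leiden resolution 0.5, members left out of the variable genes). Types were named from marker lists, except the secretory luminal type and the clusters called by a leading gene (Klra2, Nrg3). No gene of the secretory list counted as a marker in any cluster of the secretory type, so that label does not rest on marker hits. The median of these genes in the other types was 0.360 to 0.834 of the secretory level. The secretory type also includes a cluster led by Top2a and Kif11 (459 nuclei of the named animals).

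UMIs were summed per animal and type (at least 10 nuclei) and tested with edgeR 4.0.16 (TMM, quasi-likelihood, R 4.3.3), with Benjamini-Hochberg adjustment over all genes and a threshold of 0.05. DESeq2 1.42.0 was an alternative. The animals shared 1 library, so the p-values measure the spread between animals only.

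Members with at least 100 UMIs were named with values, as were the 3 members with the smallest p per type and 2 genes per pathway list. The symbol rule for the members and the gene lists were chosen with earlier results of these data known. The result of 1 member is not reported here.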

Additional observations from a re-analysis of the deposited data

Results flagged for a closer look

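In 2 of the 59 groups of 4 animals checked, 1 animal stood far from the other 3, and chance gives this in about 1 in 20 groups. Slc38a6 had 150 CPM in luminal progenitor nuclei of WT4 (149.7 CPM from 20 UMIs), where the other WT animals had 76.1 to 86.9 CPM. Slc38a9 had 93.8 CPM in myoepithelial nuclei of KO3 (33 UMIs), where the other labelled knockout animals had 51.5 to 56.9 CPM.

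Cell types left out of the comparisons for their few nuclei held levels of some members at least 4 times those in any compared type, both read over pooled nuclei. Slc38a11 had 121 CPM in pericyte nuclei. Slc38a1 had 118 CPM in T and NK nuclei and 127 CPM in the cluster led by Nrg3. These are pooled nuclei with no replicates.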

How the results depend on the processing

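No member was called in secretory nuclei under any alternative run, while the genes called there went from 0 to 22 with DESeq2 and to between 0 and 34 when 1 animal was left out (34 without WT4). In the other types together, 4 genes were called. That count was 21 with DESeq2, 284 with no filter on low counts, 48 with the replicate block, 1 with centred log ratios within barcodes, 1 with all hashtags in the calling and 2 to 81 with 1 animal left out (81 without WT4, 2 without WT1). Members called there went from 0 to 2 with no filter (Slc1a3 in adipocyte and Slc7a2 in fibroblast nuclei) and to between 0 and 2 with 1 animal left out (Slc1a3 in adipocyte and fibroblast nuclei without WT4). The cause was not tested. The labels do not say that a replicate number marks a shared litter or day. In secretory nuclei the correlations of same-numbered animals were 0.453, 0.003, 0.348 and 0.139, so 1 pair was not over 0.1, and the highest with another number were 0.629, 0.043, -0.126 and 0.242. The numbers were not taken as pairs, and the block called 0 members.

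Uncalled fold changes that turned sign were Slc38a6 in luminal progenitor nuclei (-0.041 with members kept among the clustering genes), Slc38a2 there (-0.078 within barcodes), Slc38a6 in endothelial nuclei (-0.0022 with all hashtags, -0.050 to 0.42 with 1 animal left out) and Slc7a5 there (-0.041 without the highest Scrublet scores, -0.050 to 0.32 with 1 animal left out). The members with a separate type numbered 5 to 7 under alternatives chosen after seeing the data. Macrophage nuclei could not be fitted with calling within barcodes.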
